A study of Mus musculus with 82 samples.

Results

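The 34 genes described here carry glucose into the cell, break it down to pyruvate and lactate, and move lactate across membranes. They were chosen by name and not by their values: the hexokinases Hk1, Hk2 and Hk3, the enzymes Gpi1, Pfkl, Pfkm, Pfkp, Aldoa, Aldoc, Tpi1, Gapdh, Pgk1, Pgam1, Pgam2, Eno1, Eno2, Eno3 and Pkm, the lactate dehydrogenases Ldha and Ldhb, the lactate and pyruvate transporters Slc16a1, Slc16a3 and Slc16a7, the glucose transporters Slc2a1, Slc2a3 and Slc2a4, the regulators Pfkfb1 to Pfkfb4, and the pyruvate dehydrogenase kinases Pdk1 to Pdk4. All 34 were present in each of 8 tables of estimated counts, which listed between 18003 and 53278 genes, and all 34 passed the filter on low counts in every comparison. Poly(A)-selected RNA of mouse sciatic nerve had been sequenced in 82 libraries of 22 groups, with 15438783 to 34531474 counts per library.

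In a peripheral nerve, Schwann cells wrap axons and take up glucose, and part of what they break down is thought to reach the axon as lactate through monocarboxylate transporters. Glucose enters the nerve across the endothelium of its vessels and the perineurium, the cell layer around each fascicle, and both barriers carry the transporter encoded by Slc2a1. Most steps of glycolysis have several isozymes with their own tissues. Pfkm, Eno3, Pgam2 and the insulin-responsive transporter gene Slc2a4 are known from skeletal muscle, which lies against the nerve and can be dissected with it.

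The groups were as follows, with names spelled as in the labels. Nerves of Fig4 +/+ and Fig4 -/- mice were taken at P12 and, in a separate table, at P4, with 3 libraries per group. DhhCre was set against Mitf at P21 with 5 libraries each, and Egr2Cre against Mitf at P12 with 3 each. In such Cre lines the recombinase is driven from a gene active in Schwann cells or their precursors. Mitf nerves without injury were set against Mitf nerves 3 days after injury, with 4 libraries each. Wild type and Mutant nerves were collected 3, 7 and 14 days after injury, with 3 libraries at each time. Egr2Cre Mitf was set against Mitf with 3 each, and control and Mitf with 6 each were set against Ndrg1 and Mitf-Ndrg1 with 5 each. The labels as read here give no postnatal age for these 2 tables, the Mitf injury table or the Wild type and Mutant time course. The labels do not say which of Mitf, DhhCre, Egr2Cre and Mutant carries an altered Mitf gene, so every direction below is by label. They also do not say that the libraries of a group came from separate animals, or whether nerves were pooled, and p-values then measure only the spread between these libraries, which may be technical.

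Fig4 and Ndrg1 were lower in the libraries labelled for them, while Mitf had no common direction under the Mitf label. Fig4 lay between 3.03 and 5.865 CPM (the count of a gene relative to the total of its library, scaled within a table by edgeR's TMM factors) in the Fig4 -/- libraries of P12 against 18.2 to 26.2 in Fig4 +/+. Ndrg1 lay between 160 and 191 CPM in the Ndrg1 and Mitf-Ndrg1 libraries against 1440 to 2051 in control and Mitf. Mitf was higher under the Mitf label than under DhhCre (17.6 to 22 against 4.31 to 7.02 CPM), Egr2Cre (13.7 to 14.5 against 6.72 to 9.56) and Egr2Cre Mitf (10.1 to 11.8 against 7.02 to 9.9). In the Ndrg1 table it was lower under that label than in control, at 10.5 to 14.7 against 15.2 to 21.6 CPM, with 12.1 to 17.9 in Mitf-Ndrg1 nerves. These levels do not tell which label stands for an altered Mitf gene. Several libraries stood apart. The sum of 17 skeletal muscle markers ranged from 11.8 CPM to 165000 CPM over all libraries, and 18 libraries exceeded 3 times the median of their table. Replicate 1 of the injured Mitf nerves had 11500 CPM over 9 astrocyte markers, against 23 to 473 CPM in every other library, and a list of such markers was drawn up after its Aldoc level had been seen. Results that rest on these libraries are given with and without them.

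Within the control nerves of the Ndrg1 table, levels per kilobase of exon ordered the genes by abundance. Ldhb, the lactate dehydrogenase of oxidative tissues, came first at 307 CPM per kb, followed by Aldoa at 244 and Gapdh at 141. Pgk1, Tpi1, Pgam1, Pkm, Ldha and Eno1 lay between 84.2 and 44.3 CPM per kb. The transporter genes Slc2a1 and Slc16a1 followed at 37.1 and 28.4. Among the phosphofructokinases the muscle isozyme gene Pfkm was highest, at 25.5 CPM per kb against 5.12 for Pfkl and 1.38 for Pfkp, in nerves that were not rich in muscle markers. Slc2a3, the transporter of neurons and leukocytes, was at 0.232. Ldhb ranked 1 or 2 among the 34 in every group of 6 tables, between 7 and 10 in the table of Egr2Cre Mitf, and between 8 and 11 in the 6 groups of Wild type and Mutant nerves after injury. Gapdh, Pgk1, Ldha, Eno1, Pgam1 and Aldoa have near-identical copies or pseudogenes among the listed genes, so their counts may be split in part, and the gene-level count of Pkm does not separate its spliced forms.

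The promoters of 7 genes are shown because their genes carry the results that follow. In the main fits Hk3, Pfkp, Pgam1 and Pfkfb4 were called higher, and Slc16a1 and Slc2a1 lower, both after injury and in Ndrg1 nerves. Of these injury calls, only that on Slc16a1 was kept in all 15 alternative settings. Aldoc had the largest fall in Ndrg1 nerves. Each sequence runs 5′ to 3′ on the gene's strand from 250 bases before to 50 bases after a RefSeq transcription start on build GRCm38.p6. Capitals mark ACGTG or GCGTG on either strand, the core letters to which hypoxia-inducible factors bind. ACGTG, but not GCGTG, also lies inside CACGTG, the E-box read by MYC, by MITF and its relatives and by the glucose-sensing factor ChREBP.
Hk3, chr13:55021336-55021635 (minus strand): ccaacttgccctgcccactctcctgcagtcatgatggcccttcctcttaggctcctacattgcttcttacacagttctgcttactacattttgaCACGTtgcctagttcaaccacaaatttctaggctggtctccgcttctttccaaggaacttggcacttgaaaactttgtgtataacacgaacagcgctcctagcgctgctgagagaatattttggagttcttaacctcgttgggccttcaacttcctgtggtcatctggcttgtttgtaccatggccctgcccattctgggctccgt
Pfkp, chr13:6648722-6649021 (minus strand): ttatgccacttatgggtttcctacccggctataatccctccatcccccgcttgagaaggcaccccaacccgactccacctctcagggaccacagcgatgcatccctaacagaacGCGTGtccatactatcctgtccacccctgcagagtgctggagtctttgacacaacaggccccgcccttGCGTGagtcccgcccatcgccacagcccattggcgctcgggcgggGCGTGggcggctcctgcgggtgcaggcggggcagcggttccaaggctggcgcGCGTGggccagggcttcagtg
Pgam1, chr19:41911621-41911920 (plus strand): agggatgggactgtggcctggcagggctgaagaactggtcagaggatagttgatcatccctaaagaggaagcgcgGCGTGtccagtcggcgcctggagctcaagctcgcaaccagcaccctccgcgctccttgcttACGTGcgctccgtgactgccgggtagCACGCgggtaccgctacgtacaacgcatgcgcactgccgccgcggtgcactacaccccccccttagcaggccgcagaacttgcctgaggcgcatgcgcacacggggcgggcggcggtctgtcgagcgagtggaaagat
Pfkfb4, chr9:108991652-108991951 (plus strand): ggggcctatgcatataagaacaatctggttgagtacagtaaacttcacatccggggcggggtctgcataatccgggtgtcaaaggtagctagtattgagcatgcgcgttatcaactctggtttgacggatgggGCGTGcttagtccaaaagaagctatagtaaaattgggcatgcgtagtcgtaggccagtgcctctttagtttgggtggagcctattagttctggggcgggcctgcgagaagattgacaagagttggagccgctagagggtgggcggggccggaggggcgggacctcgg
Slc16a1, chr3:104638414-104638713 (plus strand): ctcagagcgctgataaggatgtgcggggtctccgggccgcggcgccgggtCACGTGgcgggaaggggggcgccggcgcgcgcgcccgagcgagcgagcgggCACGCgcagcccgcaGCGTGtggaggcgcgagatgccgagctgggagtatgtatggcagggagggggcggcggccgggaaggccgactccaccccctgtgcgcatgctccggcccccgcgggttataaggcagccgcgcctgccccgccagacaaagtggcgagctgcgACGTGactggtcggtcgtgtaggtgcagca
Slc2a1, chr4:119108495-119108794 (plus strand): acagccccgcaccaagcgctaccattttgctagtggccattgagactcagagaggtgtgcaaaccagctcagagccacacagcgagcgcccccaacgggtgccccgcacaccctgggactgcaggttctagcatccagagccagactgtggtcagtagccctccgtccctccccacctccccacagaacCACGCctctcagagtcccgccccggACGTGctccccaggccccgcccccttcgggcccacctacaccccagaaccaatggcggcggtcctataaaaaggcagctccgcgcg
Aldoc, chr11:78322823-78323122 (plus strand): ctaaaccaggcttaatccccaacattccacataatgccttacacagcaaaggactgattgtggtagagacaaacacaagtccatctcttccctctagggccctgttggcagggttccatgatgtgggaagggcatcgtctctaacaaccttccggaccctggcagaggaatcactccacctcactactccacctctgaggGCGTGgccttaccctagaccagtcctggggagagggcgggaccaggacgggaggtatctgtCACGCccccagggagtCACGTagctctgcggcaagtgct
The windows hold 1 match in Hk3, 4 in Pfkp, 3 in Pgam1, 1 in Pfkfb4, 5 in Slc16a1, 2 in Slc2a1 and 3 in this first of 2 Aldoc starts. Slc16a1 alone among these 7 windows has CACGTG, whose 2 overlapping readings count as 2 of its 5 matches. Over all members in the RefSeq table, 37 of 50 windows of 31 genes hold ACGTG or GCGTG on either strand, which is 74.0%, against 43.8% of all 32851 windows of this length. For CACGTG the shares are 12% and 7.15%, and for the TATAAA box 6.0% and 13.6%. The member windows have a median GC content of 58.3%, against 52.7% over all windows, and the shares were not matched on it. A match says only that the letters are there.

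Ndrg1 nerves differed from control nerves at many members. By edgeR's quasi-likelihood test with Benjamini-Hochberg adjustment over all genes tested, 18 of 34 members (52.9%) passed an adjusted p of 0.05, beside 60.5% of all genes tested (30.8% higher and 29.7% lower), so the members were called no more often than other genes. Of these, 9 rose and 9 fell, and the median log2 change of the members was -0.04 against 0.02 over all genes.

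At the first step, Hk1, the hexokinase of most tissues, fell: control libraries ranged from 97.5 to 134 CPM with a median of 118, and the 5 Ndrg1 libraries had 61.2, 62.7, 45.0, 63.7 and 67.5. The groups did not overlap (log2 change -0.97, SE 0.11, edgeR adjusted p = 9.3e-08). Hk3, a hexokinase known from leukocytes, rose from 2.38 to 3.29 CPM (median 2.68) in control to 9.66, 12.2, 5.04, 11.2 and 13.4 in Ndrg1 nerves. Every Ndrg1 library exceeded every control library, for a log2 change of 1.88 (SE 0.18, edgeR adjusted p = 3.19e-09). Hk2, the hexokinase that insulin and hypoxia induce in other tissues, rose 2.21-fold (edgeR adjusted p = 0.00573). Summed macrophage markers moved with Hk3: they lay between 484 and 653 CPM in control and 3470 and 4500 CPM in Ndrg1 nerves, 9 of 10 were called higher, and their part in the change of Hk3 was not tested. In bulk tissue, fewer cells of a type and less RNA per cell cannot be told apart.

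The largest change of any member was that of Aldoc, the aldolase of brain and nerve. Control nerves had 29.0 to 35.02 CPM with a median of 31.1, and Ndrg1 nerves had 5.25, 3.91, 4.00, 4.57 and 4.37. The groups were far apart, and Aldoc was 7.07-fold lower (log2 change -2.82, SE 0.11, edgeR adjusted p = 4.54e-16). Mitf-Ndrg1 nerves had 3.33, 2.55, 3.74, 2.58 and 3.69 CPM against 30.7 to 38.8 (median 33.2) in Mitf nerves, a 10.6-fold difference (log2 change -3.40, SE 0.11, edgeR adjusted p = 1.42e-17). Summed markers of myelinating Schwann cells moved with it, from 155000 to 184000 CPM in control to 46600 to 60000 CPM in Ndrg1 nerves, a smaller ratio than that of Aldoc. All 10 of these markers were called lower, and their part in the result was not tested.

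Phosphofructokinase commits sugar to glycolysis. Its platelet-type gene Pfkp rose from 16.8 to 19.7 CPM (median 18.5) to 29.3, 26.1, 24.9, 27.9 and 30.9 (log2 change 0.59, SE 0.08, edgeR adjusted p = 2.75e-07). The groups did not overlap. Pfkfb3 and Pfkfb4, whose products make the activator fructose 2,6-bisphosphate, also rose. Pfkfb4 had 14.7 to 18.7 CPM (median 16.6) in control and 37.9, 37.1, 28.0, 39.3 and 34.5 in Ndrg1 nerves (log2 change 1.08, SE 0.13, edgeR adjusted p = 8.85e-08), again with no overlap, and Pfkfb3 rose by 0.86 on the log2 scale (edgeR adjusted p = 7.57e-04). Pfkm went the other way: control nerves had 76.4 to 96.6 CPM (median 85.3), and Ndrg1 nerves had 34.6, 35.6, 34.7, 48.9 and 38.7. No library of one group reached the other, yet the fit to all 4 groups did not call it (log2 change -1.14, SE 0.53, edgeR adjusted p = 0.0714). Muscle-rich libraries of the other 2 groups enter the shared estimate of spread of that fit. With control and Ndrg1 nerves fitted alone, Pfkm was called (log2 change -1.11, edgeR adjusted p = 1.13e-07). In that fit Aldoa, Tpi1, Gapdh and Pkm were also called lower, by -0.75, -0.25, -0.50 and -0.42 on the log2 scale, and Ldha higher by 0.42. Muscle markers summed to 97.6 to 1300 CPM (median 304) in control and 45.3 to 1450 CPM (median 64.5) in Ndrg1 nerves. Their part in the changes of Pfkm and these genes was not tested. Pfkl was called lower in the fit to all 4 groups, with log2 changes from -0.38 to -0.16 over 17 alternative settings. Its call was lost in 4 of these, the fit of control and Ndrg1 nerves alone among them.

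Of the enolases, Eno1 fell (log2 change -0.89, SE 0.13, edgeR adjusted p = 2.13e-06) and Eno2, the enolase of neurons, rose (0.51, SE 0.10, edgeR adjusted p = 1.38e-04). Ldhb, whose enzyme favours the turning of lactate into pyruvate, had 439 to 534 CPM (median 477) in control and 259, 273, 207, 260 and 231 in Ndrg1 nerves. It fell with no overlap (log2 change -0.97, SE 0.08, edgeR adjusted p = 6.08e-10). As a description with no test, the log2 ratio of Ldhb to Ldha counts averaged 1.50 in control and 0.14 in Ndrg1 nerves, that of Pfkp to Pfkm -2.20 and -0.46, that of Hk2 to Hk1 -3.77 and -1.66, and that of Eno2 to Eno1 -3.16 and -1.75. These are 4 of 9 isozyme ratios computed. In 6 of the 9 the groups did not overlap, namely these 4, Aldoc to Aldoa and Slc16a3 to Slc16a1. In Mitf-Ndrg1 against Mitf nerves 3 of the 9 did not overlap, those of Aldoc to Aldoa, Eno2 to Eno1 and Slc2a3 to Slc2a1, and the ratios of Hk2 to Hk1, Pfkp to Pfkm and Ldhb to Ldha did. Ratios of other gene pairs were not computed, and 60.5% and 57.6% of all genes were called in these comparisons. The counts of ratios therefore cannot be called particular to these isozymes. Pdk2 and Pdk4, kinases that shut off pyruvate dehydrogenase, fell (log2 changes -1.096 and -1.27, edgeR adjusted p = 2.64e-04 and 0.00145), and Pdk3 rose by 0.49 (edgeR adjusted p = 7.3e-04).

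Both main transporter genes of the nerve fell. Slc16a1, which encodes the lactate transporter MCT1, had 104 to 141 CPM (median 127) in control and 73.2, 95.1, 104, 81.3 and 66.3 in Ndrg1 nerves (log2 change -0.58, SE 0.10, edgeR adjusted p = 2.67e-05). The highest Ndrg1 library, 104.0 CPM, lay just under the lowest control library, 104.3. Slc2a1, which encodes the glucose transporter GLUT1, had 116 to 162.5 CPM (median 125) in control and 86.7, 88.0, 63.4, 90.6 and 106 in Ndrg1 nerves (log2 change -0.58, SE 0.10, edgeR adjusted p = 3.46e-05). The groups did not overlap. Slc2a3 rose by 0.87 from a low level of 1.48 to 2.07 CPM in control (edgeR adjusted p = 7.08e-04). The chaperone gene Bsg, whose product brings MCT1 to the membrane, fell (log2 change -0.46, SE 0.07, edgeR adjusted p = 4.07e-06), and Emb, a chaperone of the same family, rose by 1.48 (SE 0.40, edgeR adjusted p = 0.00308). Endothelial markers summed to 204 to 244 CPM in control and 105 to 138 CPM in Ndrg1 nerves, with 5 of 6 called lower, and perineurial markers to 372 to 567 and 162 to 250 CPM, with 2 of 5 called lower. Their part in the fall of Slc2a1 and Slc16a1 was not tested.

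**Figure D1:**
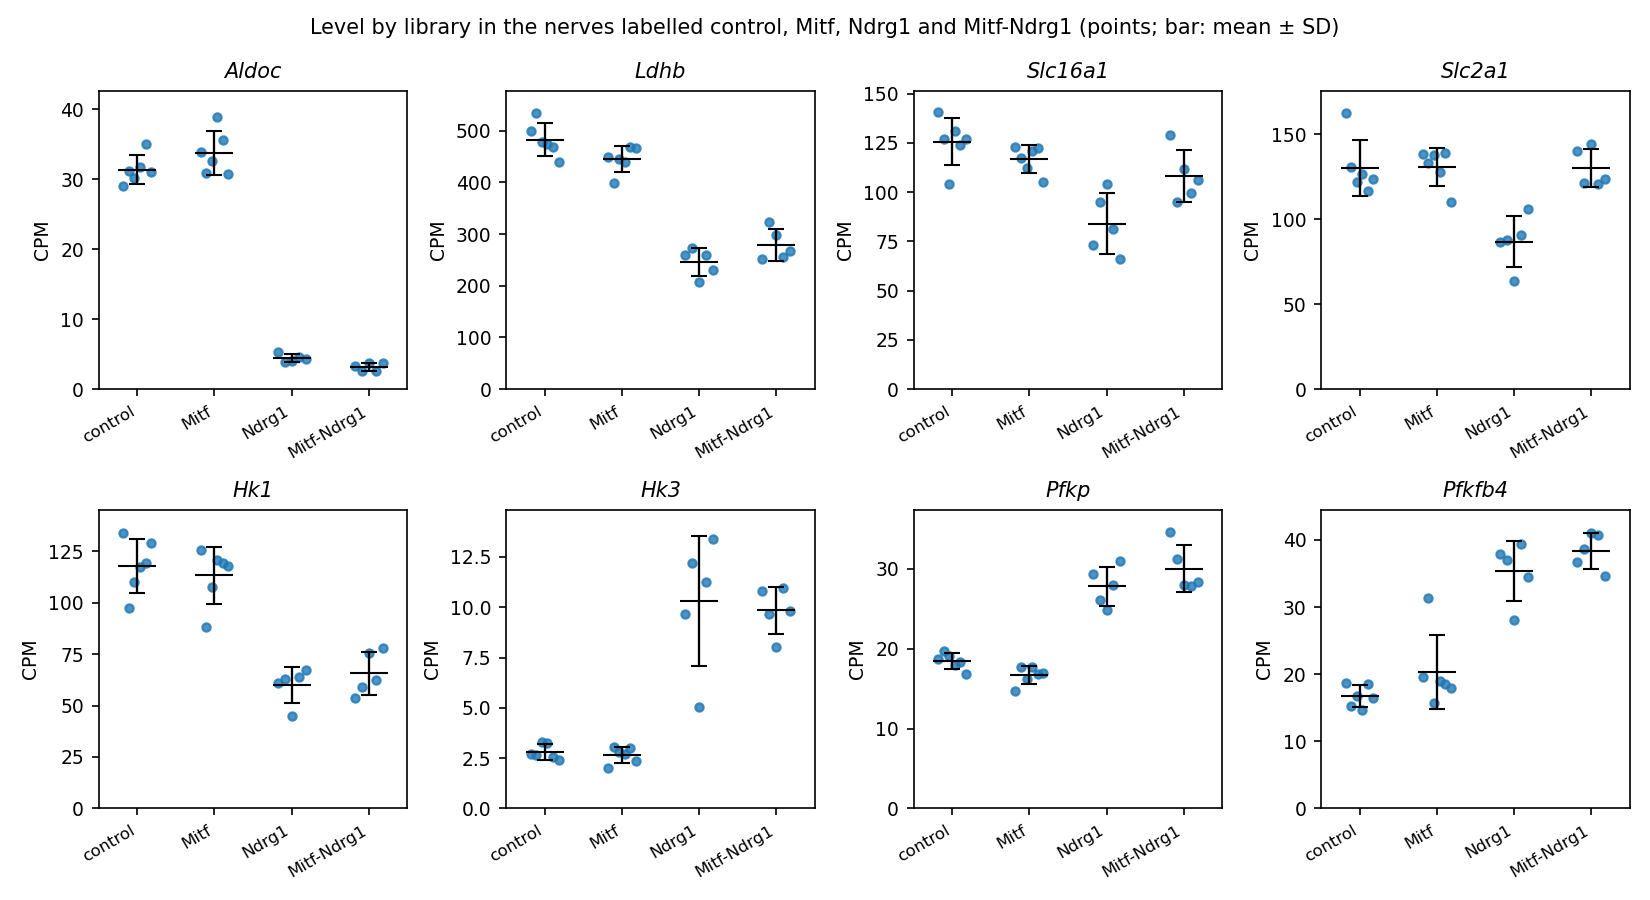
Levels of Aldoc, Ldhb, Slc16a1, Slc2a1, Hk1, Hk3, Pfkp and Pfkfb4 in control (n = 6), Mitf (n = 6), Ndrg1 (n = 5) and Mitf-Ndrg1 (n = 5) nerves, as TMM-scaled CPM on the y axis. Points are libraries and bars the mean with its SD. Aldoc in the 10 Ndrg1 and Mitf-Ndrg1 libraries lies between 2.55 and 5.25 CPM, while Slc2a1 lies lower only in the Ndrg1 group, between 63.4 and 106 CPM.

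Mitf-Ndrg1 nerves were set against Mitf nerves, a comparison that shares no library with the one above. There 14 of 34 members (41.2%) were called, 8 higher and 6 lower, beside 57.6% of all genes (29.7% and 27.9%). All 8 that were higher were also higher in Ndrg1 against control, 88.9% of the 9 called there, and 5 of the 6 that were lower were shared: Hk1, Aldoc, Eno1, Ldhb and Pdk2. Over all genes tested, 82.5% of those higher here were higher in Ndrg1 against control too, and 85.1% of those lower here were lower there, so the members' shares lie near those of other genes. The sixth was Pfkfb2 (log2 change -0.73, edgeR adjusted p = 2.27e-05). Slc16a1 and Slc2a1 were not called here: their log2 changes were -0.11 (edgeR adjusted p = 0.373) and -0.01 (edgeR adjusted p = 0.94). Without the 5 libraries of this table over 3 times its median of muscle markers, Pfkm was called as well, with a log2 change of -1.13 (edgeR adjusted p = 1.59e-06). Left out were Mitf replicates 2 and 3 and Mitf-Ndrg1 replicates 1, 2 and 4. In the libraries kept, the log2 ratio of Pgam2 to Pgam1 was -8.99 and -9.93 in Mitf-Ndrg1 against -2.93, -2.62, -8.06 and -3.6 in Mitf. The groups were thus not matched on muscle, whose part was not tested.

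Mitf-Ndrg1 nerves were then set against Ndrg1 nerves directly, and 2 members (5.88%) were called, beside 1.47% of all genes (1.07% higher and 0.402% lower). Slc2a1 was higher, with 140, 121, 144, 121 and 124 CPM against 86.7, 88.0, 63.4, 90.6 and 106, so that the groups did not overlap (log2 change 0.58, SE 0.11, edgeR adjusted p = 0.0101). Aldoc was lower (log2 change -0.47, SE 0.11, edgeR adjusted p = 0.0375). Slc16a1 had 129, 94.9, 112, 99.7 and 106 CPM against 73.2, 95.1, 104, 81.3 and 66.3, which overlap (log2 change 0.37, SE 0.11, edgeR adjusted p = 0.0738). The call on Slc2a1 was kept in 16 of 17 alternative settings, and was lost with these groups fitted alone, at an adjusted p of 0.0668. That on Aldoc was lost in 8 of 17, among them without Mitf-Ndrg1 replicate 2 or 4 and without Ndrg1 replicate 1, 4 or 5. Endothelial markers summed to 171 to 195 CPM in Mitf-Ndrg1 against 105 to 138 in Ndrg1 nerves, with 4 of 6 called higher, and perineurial markers to 291 to 340 against 162 to 250, with 2 of 5 called higher. Their part in the level of Slc2a1 was not tested.

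Whether the Ndrg1 effect itself differed with Mitf was tested with an interaction term. No member passed in edgeR, where 0.39% of all genes did, and 8 members had an unadjusted p under 0.05. The difference was 0.57 for Slc2a1 (SE 0.15, edgeR adjusted p = 0.0697), 0.47 for Slc16a1 (SE 0.14, edgeR adjusted p = 0.122) and -0.58 for Aldoc (SE 0.15, edgeR adjusted p = 0.0659). DESeq2 called 2 members, Aldoc (-0.59, adjusted p = 0.0124) and Slc2a1 (0.56, adjusted p = 0.0149). Without Ndrg1 replicate 3, edgeR called Aldoc and Slc16a1, and without Mitf-Ndrg1 replicate 1 it called Aldoc. Mitf nerves against control gave no called member, beside 0.00629% of all genes, and DESeq2 called 0. There 7 members had an unadjusted p under 0.05, led by Pgam2 and Eno3 at log2 changes of 3.97 and 3.82 (lowest edgeR adjusted p = 0.666). Pgam2 reached 582 CPM and Eno3 1450 CPM in Mitf replicate 2, whose muscle markers summed to 41380 CPM.

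In Mitf nerves 3 days after injury, Hk3, Gpi1, Pfkp, Pgk1, Pgam1 and the regulator Pfkfb4 were higher, and the transporter genes Slc16a1 and Slc2a1 lower. Aldoa, Tpi1, Gapdh, Eno1 and Pkm were not called. By edgeR's test 8 of 34 members (23.5%) were called, 6 higher and 2 lower, beside 22.1% of all genes (11.7% higher and 10.4% lower), a share close to the background. The median log2 change of the members was 0.27, against 0.04 over all genes. Slc16a1 had 78.5, 77.9, 79.1 and 88.2 CPM without injury and 42.9, 46.7, 55.0 and 42.9 after it. The groups were well apart (log2 change -0.79, SE 0.12, edgeR adjusted p = 0.00307), and this call was kept in all 15 alternative settings, with log2 changes from -0.87 to -0.70. Slc2a1 had 126, 137, 157 and 176 CPM without injury and 93.7, 82.8, 124.5 and 110 after it, again with no overlap (log2 change -0.53, SE 0.16, edgeR adjusted p = 0.0364). Its call was lost in 9 of the 15 alternative settings, with log2 changes from -0.64 to -0.41. Perineurial markers summed to 545 to 698 CPM without injury and 148 to 370 CPM after it, with 1 of 4 called lower, while endothelial markers summed to 255 to 282 and 232 to 420 CPM. Their part in the transporter levels was not tested.

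Pgk1, which makes the first ATP of the pathway, had 132.5, 143, 140 and 136 CPM without injury and 359, 315, 228 and 255 after it. All injured libraries were higher (log2 change 1.07, SE 0.16, edgeR adjusted p = 0.00298). Without the muscle-rich libraries, uninjured replicates 1 and 4, the call on Slc16a1 was the only 1 of the 8 left, beside 3.51% of all genes called, and Pgk1 had a log2 change of 0.96 (edgeR adjusted p = 0.0696). Pgam1, the mutase of non-muscle tissue, had 120.5, 109, 121 and 100.2 CPM against 284, 233, 137 and 177 (log2 change 0.89, SE 0.21, edgeR adjusted p = 0.0154). Its lowest injured library was replicate 3, and the groups again did not overlap. Pfkfb4 had 12.9, 11.97, 15.9 and 18.98 CPM against 33.8, 32.6, 18.99 and 24.9 (log2 change 0.89, SE 0.22, edgeR adjusted p = 0.0200). Here the third injured library lay only just above the highest uninjured one. Hk3 had 4.13, 2.96, 6.33 and 2.61 CPM against 10.2, 27.4, 8.30 and 9.14, a 3.44-fold rise (log2 change 1.78, SE 0.45, edgeR adjusted p = 0.0201). Its highest library was injured replicate 2, and macrophage markers summed to 495 to 1220 CPM without injury and 910 to 2460 CPM after it, whose part was not tested. Pfkp had 17.8, 25.7, 26.3 and 20.9 CPM against 78.8, 39.2, 36.1 and 31 (log2 change 1.04, SE 0.29, edgeR adjusted p = 0.0306), its highest library being injured replicate 1. Gpi1 was the sixth that rose, by 0.51 on the log2 scale (edgeR adjusted p = 0.0379). The calls on Pfkp and Gpi1 were each lost in 10 of 15 alternative settings, that on Pfkfb4 in 6 and that on Hk3 in 5.

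Injured replicate 1, the library with astrocyte markers, stood apart at several members. Aldoc had 24.3, 17.8, 16.7 and 15.6 CPM without injury and 3007, 3.78, 1.89 and 6.93 after it, the first of these being that library. Pfkm had 86.2, 92.7, 87.1 and 132 CPM without injury and 356, 35.7, 71.7 and 52.1 after it, with the same library again on top. Without this library, Aldoc was called lower (log2 change -2.15, edgeR adjusted p = 0.00488), as were Pfkm (-0.91, edgeR adjusted p = 0.0218), Ldhb (-0.65, edgeR adjusted p = 0.0407), Pdk2 (-0.88, edgeR adjusted p = 0.00348) and Pdk4 (-0.82, edgeR adjusted p = 0.0178). In that fit 11 members were called, Hk3, Pfkp, Pgk1, Pgam1, Slc16a1 and Pfkfb4 among them, while Gpi1 and Slc2a1 were lost. The share of all genes called in this and the next fits is not given, so these counts cannot be set against other genes. Uninjured replicate 4 was rich in muscle markers, at 2875 CPM against 64.2 in the lowest uninjured library. With both libraries left out, a setting chosen after the data were seen, 9 members were called: Hk3 (1.74), Pfkm (-0.74), Aldoc (-2.22), Pgk1 (0.94), Pgam1 (0.64), Slc16a1 (-0.70), Slc16a3 (3.43), Pfkfb4 (0.91) and Pdk2 (-0.87), each with its log2 change. Leaving out 1 of the other libraries gave 4 calls without injured replicate 2, 4 without uninjured replicate 1, 3 without uninjured replicate 2, 5 without uninjured replicate 3 and 5 without uninjured replicate 4. Pgk1, Pgam1 and Slc16a1 were called in each of these fits.

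**Figure D2:**
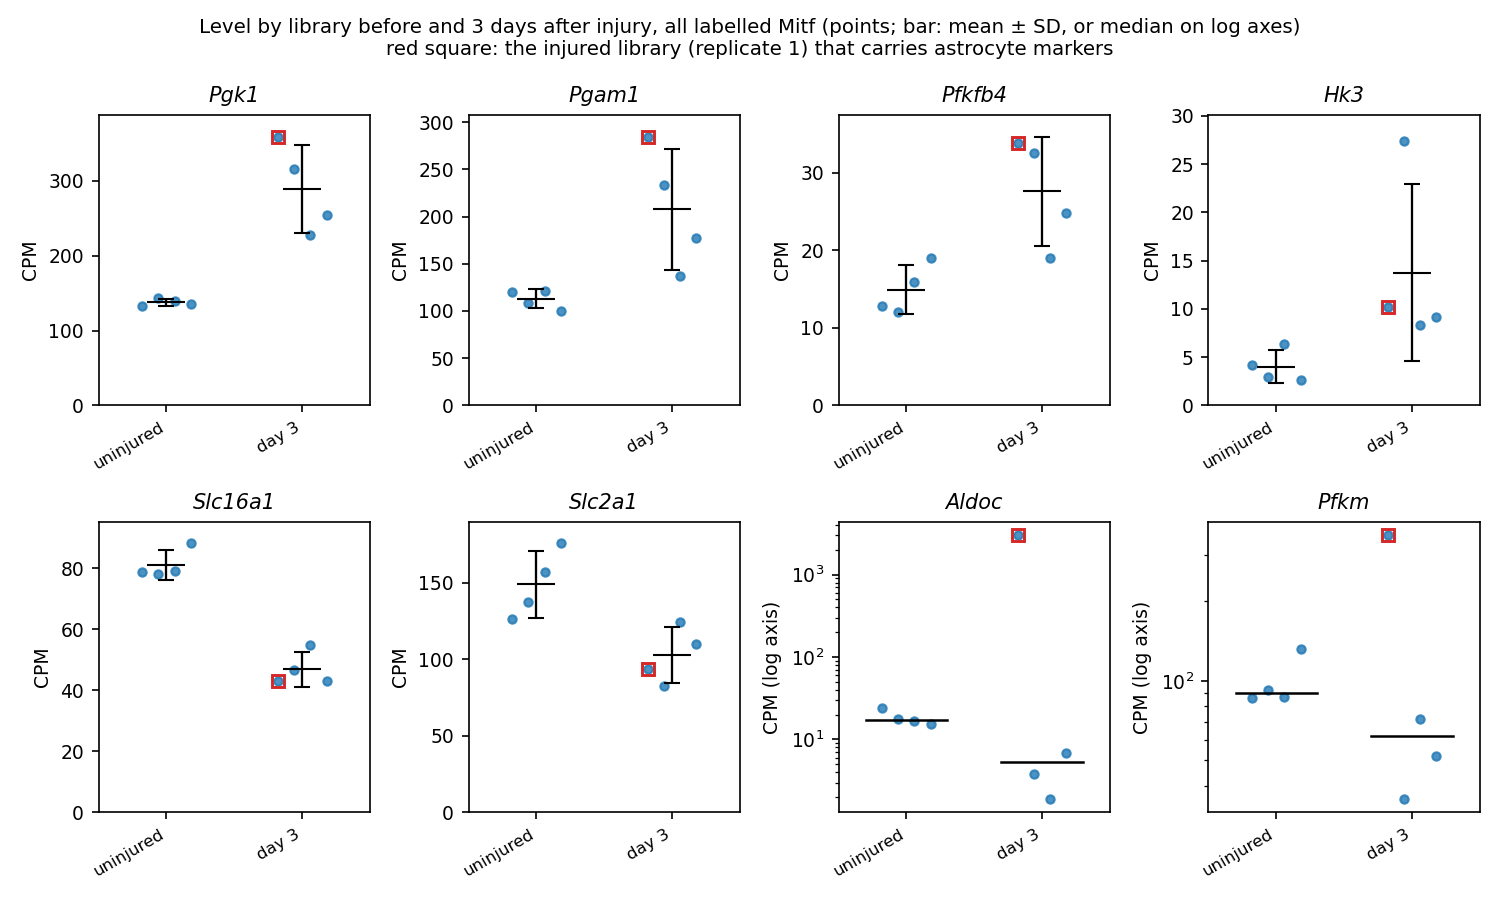
Levels of Pgk1, Pgam1, Pfkfb4, Hk3, Slc16a1, Slc2a1, Aldoc and Pfkm in Mitf nerves without injury and 3 days after it (n = 4 each), as TMM-scaled CPM on the y axis, which is logarithmic for Aldoc and Pfkm. The red square is injured replicate 1, at 3007 CPM of Aldoc and 356 CPM of Pfkm, whereas the other 3 injured libraries lie below all uninjured ones for both genes.

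The injury and the Ndrg1 comparisons come from separate tables with no library in common. Of the 6 members higher after injury, 4 (66.7%) were among the 9 higher in Ndrg1 nerves, of which they make up 44.4%: Hk3, Pfkp, Pgam1 and Pfkfb4. Both members lower after injury, Slc16a1 and Slc2a1, were among the 9 lower in Ndrg1 nerves (22.2% of those). Over all genes tested in both tables, 83.2% of those higher after injury were higher in Ndrg1 nerves, of which they make up 32.3%, and 87.1% of those lower after injury were lower there (29.4%). The members' overlap is no larger a share of the injury calls than that of other genes in the higher direction, and in the lower direction it rests on 2 genes. The injury calls on Pfkp and Slc2a1 were kept in only 5 and 6 of 15 alternative settings. Pgk1 rose by 1.07 on the log2 scale after injury, and its log2 change in Ndrg1 nerves was 0.13 (SE 0.19, edgeR adjusted p = 0.581). Markers of repair Schwann cells were higher in both settings, summing to 77.9 to 102 CPM and 342 to 582 CPM in uninjured and injured nerves, and to 110 to 132 CPM and 237 to 291 CPM in control and Ndrg1 nerves.

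Between 3 and 7 days after injury in Wild type nerves, Eno1, Eno2, Hk1, Hk3 and Pgam1 fell. By edgeR's test 12 of 34 members (35.3%) were called, 5 higher and 7 lower, beside 39.1% of all genes (19.4% higher and 19.6% lower). Eno1 had 644, 564 and 639 CPM at 3 days and 238, 289 and 178 at 7 days (log2 change -1.39, SE 0.20, edgeR adjusted p = 1.04e-04). Eno2 had 15.2, 21.8 and 18.5 CPM and then 7.04, 6.85 and 6.43 (log2 change -1.45, SE 0.21, edgeR adjusted p = 1.07e-04). Neither gene overlapped between the days. Pgam1 fell from 393, 335 and 374 CPM to 237, 216 and 197 (log2 change -0.76, SE 0.14, edgeR adjusted p = 7.72e-04). Hk1, Hk3, Pfkl and Pfkfb4 were also lower, by -1.17, -1.18, -0.88 and -0.89 on the log2 scale. Pdk3 rose from 24.4, 24.6 and 26.6 CPM to 36.2, 36.9 and 33.5 (log2 change 0.50, SE 0.10, edgeR adjusted p = 0.00156). The calls on Pfkl, Pgam1, Eno1, Eno2 and Pdk3 were kept in all 13 alternative settings. Pfkfb2 was called higher too, with log2 changes from 0.85 to 1.53 over 13 alternative settings, of which 8 kept the call. Pfkm, Eno3 and Pgam2 were called higher as well, and these muscle isoforms are taken up below.

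Mutant nerves gave 9 calls over the same days (26.5% of members), 4 higher and 5 lower, beside 33.4% of all genes (16.2% and 17.2%). Eno1 had 699, 501 and 467 CPM at 3 days and 252, 215 and 267 at 7 days (log2 change -1.18, SE 0.20, edgeR adjusted p = 4.91e-04). Pgam1, Eno2, Hk1 and Hk3 fell by 0.72, 1.17, 0.78 and 0.94 on the log2 scale, the same direction as in Wild type. The call on Eno2 was kept in 11 of 12 alternative settings. That on Hk1 was kept in only 4 of 12 (log2 changes -0.86 to -0.23) and that on Hk3 in 5 of 12 (-1.49 to -0.65). The 4 higher were Pgam2, Slc16a1, Pfkfb2 and Pdk3. Pfkfb2 was kept in 9 of 12 alternative settings (log2 changes 1.12 to 1.84) and Pdk3 in 7 of 12 (0.25 to 0.44). Whether the change from day 3 to day 7 differed between the genotypes was tested with an interaction term. It called 0 members in edgeR and 0 in DESeq2, beside 0% of all genes in edgeR. There 0 members had an unadjusted p under 0.05, beside 1020 of all 15852 genes. The count of 9 fell to 3 without Mutant replicate 2 of day 3, to 5 without replicate 3 of day 3 and to 4 without replicate 3 of day 7, and rose to 21 with the 2 groups fitted alone. Shares over all genes are not given for these refits. Pgam1 and Eno1 were called in all 12 alternative settings.

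Slc16a1 was higher at 14 than at 7 days in both genotypes. In Wild type it had 80.8, 62.5 and 72.6 CPM at 3 days, 97.5, 79.2 and 94.2 at 7 days and 185, 177 and 247 at 14 days. The step from 3 to 7 days was not called (log2 change 0.33, SE 0.18, edgeR adjusted p = 0.158). The step from 7 to 14 days was called in all 12 alternative settings (log2 change 1.17, SE 0.18, edgeR adjusted p = 0.00371). It was 1 of only 2 members called in that step (5.88%, beside 7.41% of all genes, 2.52% higher and 4.9% lower), the other being Pdk3, which went back down to 28.2, 23.7 and 26.8 CPM (log2 change -0.44, edgeR adjusted p = 0.0255). The call on Pdk3 was lost without Wild type replicate 2 or 3 of day 14 or replicate 2 of day 7, which left 1 call. Mutant nerves had 76.6, 64.6 and 66.2 CPM of Slc16a1, then 134, 85.7 and 93.8, then 188, 161 and 199. Both steps were called there (log2 changes 0.60 and 0.80, SE 0.18 each, edgeR adjusted p = 0.0181 and 0.00815), the first not without Mutant replicate 2 or 3 of day 3 or replicate 1 of day 7. Perineurial markers summed to 117 to 149 CPM at 3 days, 229 to 439 at 7 days and 536 to 873 at 14 days over both genotypes, and their part in the rise of Slc16a1 was not tested. Slc2a1, in contrast, had 102.6 to 109 CPM at 3 days, 74.7 to 128 at 7 days and 104 to 169 at 14 days in Wild type, and was called in neither step.

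Mutant nerves between 7 and 14 days had 9 calls (26.5%), 4 higher and 5 lower, beside 17.7% of all genes (8.55% and 9.16%). Pfkl, Pfkp, Pgam1, Eno1 and Pdk3 fell, by 0.76, 0.73, 0.45, 0.78 and 0.52 on the log2 scale, and Aldoa, Pgam2, Eno3 and Slc16a1 rose. Muscle markers reached 165000 CPM in Mutant replicate 2 of day 14, and without that library 4 calls were left: Pfkl, Eno1, Slc16a1 and Pdk3. The count was 16 without replicate 3 of day 14, and 5, 4 and 2 without replicates 1, 2 and 3 of day 7, each given without its share over all genes. With the 2 groups fitted alone no member was called. Slc16a1 and Pdk3 were called in every fit that left out 1 library.

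**Figure D3:**
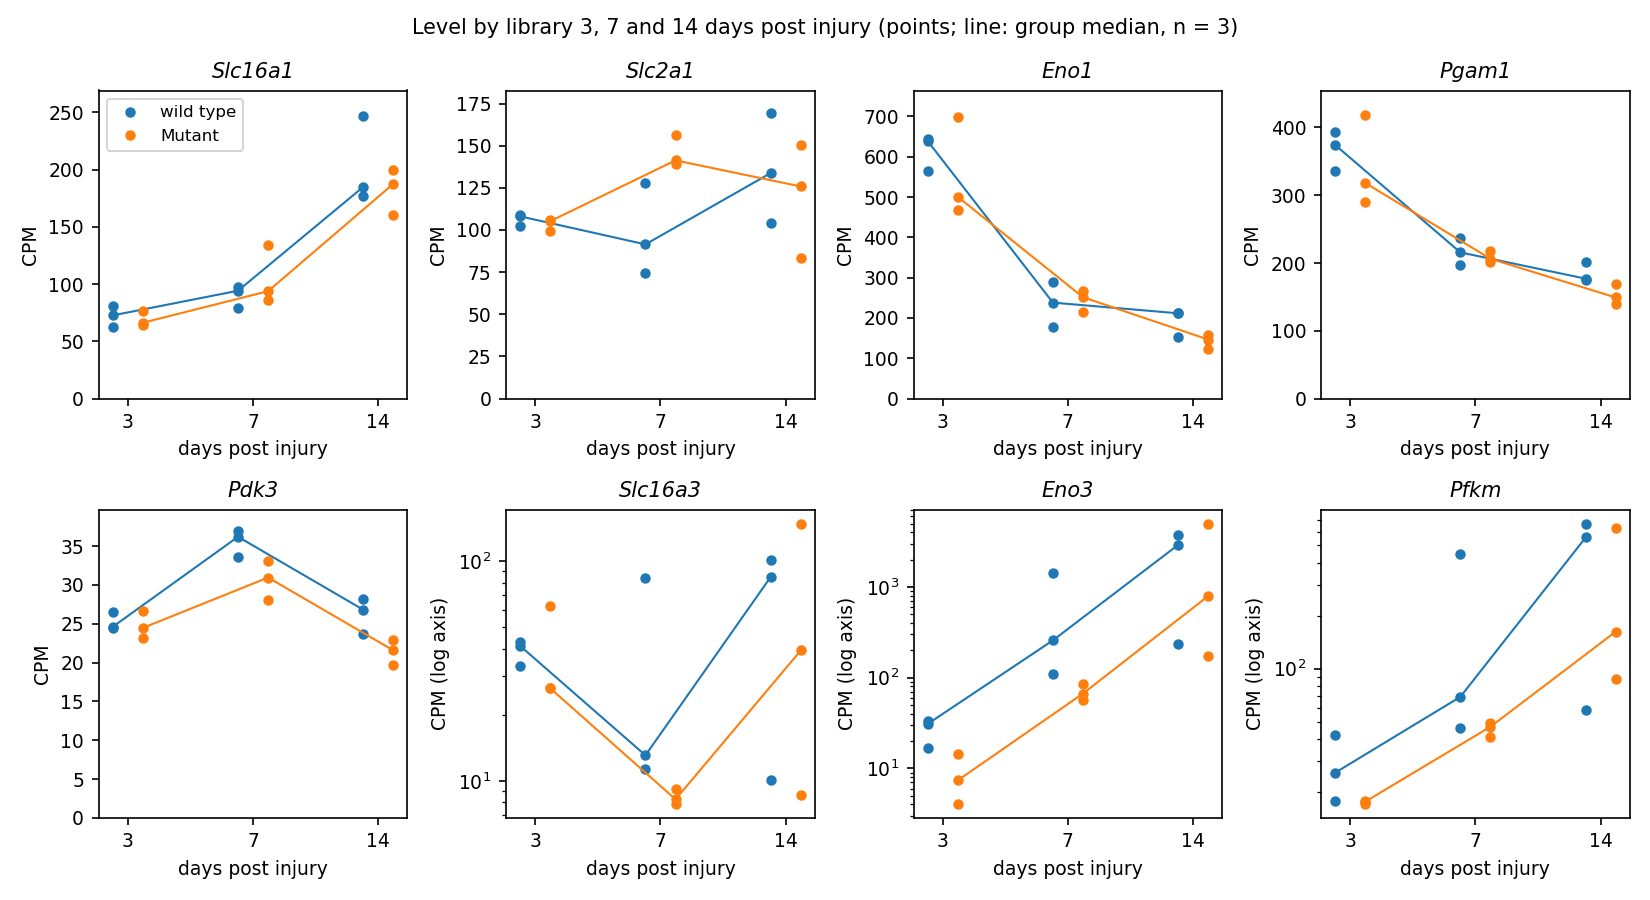
Levels of Slc16a1, Slc2a1, Eno1, Pgam1, Pdk3, Slc16a3, Eno3 and Pfkm in Wild type and Mutant nerves 3, 7 and 14 days after injury (n = 3 at each time), as TMM-scaled CPM on the y axis. Points are libraries and lines join group medians. Slc16a1 is highest at 14 days, between 161 and 247 CPM, and Eno1 highest at 3 days, between 467 and 699 CPM.

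Mutant and Wild type nerves did not differ at any member by edgeR's test at 3, 7 or 14 days, beside 0%, 0% and 8.29% of all genes (7.05% higher and 1.24% lower at 14 days). At 3 days 0 members had an unadjusted p under 0.05, beside 299 of all 15852 genes, and DESeq2 called 0 members. At 7 days 5 did: Pfkm, Pgam2 and Eno3 were lower in Mutant nerves at log2 changes of -2.05, -3.13 and -3.11, and Ldhb and Slc2a1 higher at 0.55 and 0.57 (lowest edgeR adjusted p = 0.293, DESeq2 0 calls). Wild type replicate 3 of day 7 carried 38230 CPM of muscle markers, and without it and the muscle-rich libraries of day 14 Slc2a1 was called higher in Mutant (log2 change 0.83, edgeR adjusted p = 0.0173). Endothelial markers at 7 days summed to 740 to 990 CPM in Mutant and 515 to 689 CPM in Wild type, and their part was not tested. At 14 days 8 members had an unadjusted p under 0.05 (lowest edgeR adjusted p = 0.0673). DESeq2 called 2 of them, Slc16a7 (-0.55, adjusted p = 0.0343) and Pdk3 (-0.31, adjusted p = 0.0405). Without Mutant replicate 2 of day 14, edgeR called 7 members, and without Mutant replicate 1 it called Slc16a7. For the step from 7 to 14 days, the interaction term called no member in edgeR, beside 0.0946% of all genes (0.0694% higher and 0.0252% lower), with 3 at an unadjusted p under 0.05, and DESeq2 called Ldhb (edgeR log2 difference -1.01, lowest adjusted p = 0.128).

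Fig4 -/- nerves at P12 had 3 called members (8.82%), 2 higher and 1 lower, beside 3.03% of all genes (1.87% and 1.16%). Pfkp had 9.99, 11 and 15.5 CPM in Fig4 +/+ and 23.4, 26.6 and 21.5 in Fig4 -/- (log2 change 0.97, SE 0.22, edgeR adjusted p = 0.0347). Pfkfb4 had 3.63, 6.21 and 5.52 against 13.7, 12.7 and 9.78 (log2 change 1.24, SE 0.29, edgeR adjusted p = 0.0414). Aldoc had 26.5, 27.9 and 20.2 against 16.6, 12.8 and 11.2 (log2 change -0.88, SE 0.21, edgeR adjusted p = 0.0498). In all 3 genes the genotypes did not overlap. Each also moved in the same direction in Ndrg1 nerves, and Pfkp and Pfkfb4 did so after injury. Over all genes tested in both tables, 78.3% of those higher in Fig4 -/- nerves were higher in Ndrg1 nerves and 90.4% of those lower were lower there, and 60.5% of those higher were higher after injury. Ldha was higher by 0.54 and Gpi1 by 0.44 without passing in edgeR (adjusted p = 0.0566 and 0.0932), and DESeq2 called both, for 5 calls. These calls rest on 3 libraries a side: none was left without Fig4 -/- replicate 2 or without Fig4 +/+ replicate 1 or 2, Aldoc alone was left without Fig4 -/- replicate 1, and 5 members were called without Fig4 -/- replicate 3. With the mean log2 CPM of the muscle markers as a covariate no member was called. Macrophage markers summed to 479 to 579 CPM in Fig4 +/+ and 859 to 1150 CPM in Fig4 -/-, repair Schwann cell markers to 39.2 to 45.3 and 176 to 220 CPM, and myelinating Schwann cell markers to 118000 to 169000 and 90600 to 112000 CPM. Their part in the 3 calls was not tested. At P4 no member was called, beside 0.00672% of all genes, and DESeq2 called 0. There 0 members had an unadjusted p under 0.05, beside 126 of all 14888 genes. On data simulated for P4, 2% of 2-fold and 62% of 4-fold changes were recovered, so a 2-fold change would mostly be missed. Muscle markers at P4 summed to 12040 CPM in Fig4 -/- replicate 3 and 15030 CPM in Fig4 +/+ replicate 1.

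The remaining comparisons of Mitf labels gave no called member in edgeR or in DESeq2. Mitf against DhhCre at P21 had 3 members at an unadjusted p under 0.05, beside 0.0143% of all genes called: Hk1 at -0.16, Ldha at 0.16 and Slc16a1 at -0.28 (adjusted p of Slc16a1 = 1). Mitf against Egr2Cre at P12 had 1, Pdk1 at 0.27, beside 0.0139% called. Egr2Cre Mitf against Mitf had 1, Pfkp at 0.26, beside 0% called. Over all genes, 408 of 13943, 371 of 14415 and 671 of 15482 had an unadjusted p under 0.05 in these comparisons, in the order given. In that table Slc2a1 lay between 239 and 496 CPM, Slc16a1 between 193 and 287 and Aldoc between 0.733 and 1.76, with perineurial markers at 1150 to 1920 CPM and muscle markers at 20500 to 90000 CPM. These levels were scaled within their own table.

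**Figure D4:**
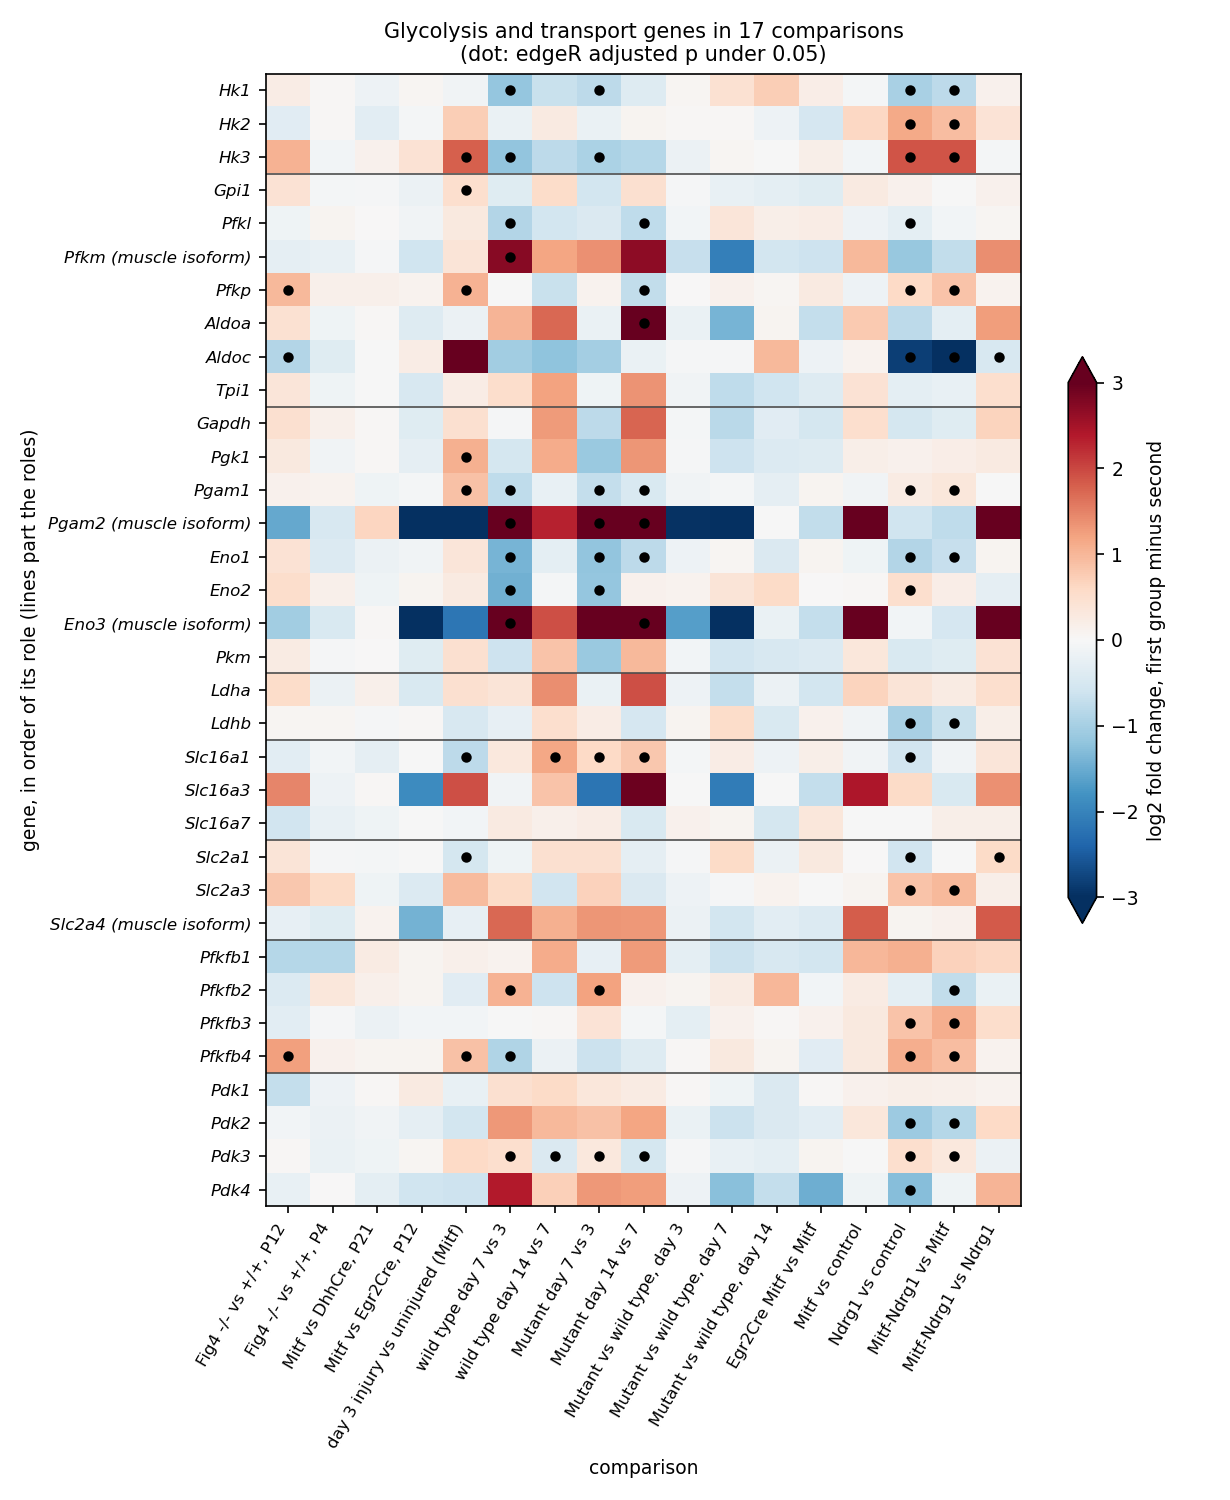
Log2 changes of the 34 members (rows, by role) in 17 comparisons (columns, by table), in colour limited to 3 either way, with a dot where edgeR's adjusted p is under 0.05. Dots cluster in the 2 Ndrg1 comparisons, 18 and 14, in the injury comparison, 8, in the steps from day 3 to day 7, 12 in Wild type and 9 in Mutant, and in the Mutant step from day 7 to day 14, 9, and the comparisons of Mitf labels without Ndrg1 or injury have none.

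The 4 muscle isoforms need to be read apart from the rest. Eno3, the muscle enolase, ranged from 16.8 to 33.5 CPM in the Wild type group at 3 days, from 109 to 1439 at 7 days and from 238 to 3723 at 14 days, while muscle markers summed to 325 to 2270, 3280 to 38200 and 11100 to 134000 CPM. Pgam2 and Eno3 had the largest log2 changes of all members in the step from 3 to 7 days in Wild type, 4.51 and 4.48 (edgeR adjusted p = 0.0203 and 0.0134), and Pfkm rose by 2.72 (edgeR adjusted p = 0.0363). With the mean log2 CPM of the 17 muscle markers as a covariate, the log2 change of Pfkm became -0.31 and that of Pgam2 -0.34, and none of the 3 was called. In Mutant nerves the change of Pgam2, 4.34 (edgeR adjusted p = 0.0333), became -0.44. Aldoa, Gapdh, Pkm, Ldha, Pgk1, Tpi1 and Slc16a3 are abundant in muscle too, and in Mitf replicate 2 of the Ndrg1 table, the one with 41380 CPM of muscle markers, Aldoa was at 3617, Gapdh at 2020, Pkm at 848 and Slc16a3 at 62.3 CPM. Slc16a3, the lactate exporter of glycolytic muscle fibres, had 62.8, 26.4 and 26.4 CPM at 3 days in Mutant nerves, whose muscle markers summed to 11.8 to 316 CPM. Slc16a3 then had 7.85, 9.19 and 8.23 CPM at 7 days, when muscle markers summed to 1460 to 3340 CPM, and 39.3, 148 and 8.65 at 14 days. From 3 to 7 days it thus fell while the markers rose. Within day 3, its highest library, replicate 1, also had the highest log2 ratio of Pgam2 to Pgam1 (-7.04 against -9.04 and -9.74). The part of muscle in its level was not tested.

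**Figure D5:**
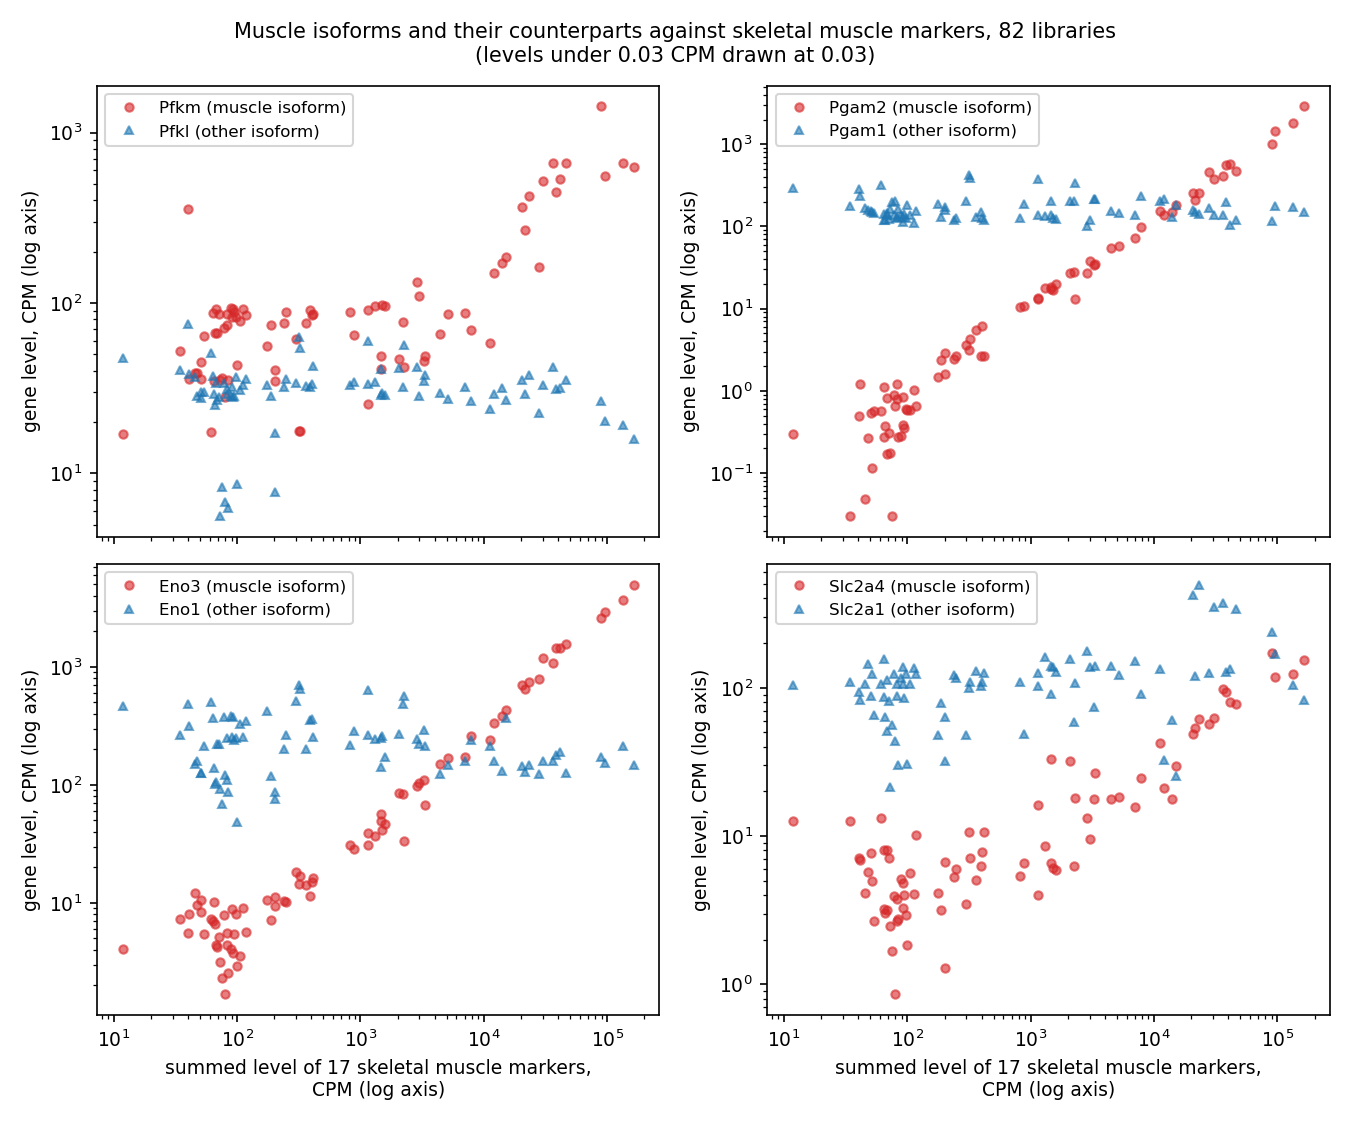
Levels of 4 muscle isoforms (Pfkm, Pgam2, Eno3, Slc2a4) and of another isoform for each (Pfkl, Pgam1, Eno1, Slc2a1) in 82 libraries against the sum of 17 skeletal muscle markers, all as TMM-scaled CPM on logarithmic axes, with levels under 0.03 drawn at 0.03. Pgam2 and Eno3 climb with the marker sum over its range from 11.8 to 165000 CPM. Pfkm lies at 76.4 to 96.6 CPM in control nerves of the Ndrg1 table, whose marker sums run from 97.6 to 1300 CPM.

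Pfkm and Slc2a4 were measured also in nerves poor in muscle markers, where Pgam2 was close to 0. In Fig4 nerves at P12, with 72.1 to 203 CPM of muscle markers, Pfkm had 28.1 to 43.4 CPM, Slc2a4 had 0.856 to 2.76 CPM and Pgam2 had 0 to 1.625 CPM. From 3 to 7 days in Wild type, without replicate 3 of day 7 and the other 5 muscle-rich libraries of that table, 20 of 34 members were called, beside 45.1% of all genes in that fit against 39.1% with all libraries. This fit added Pgk1 (-0.89), Pkm (-1.18), Gapdh (-0.79), Gpi1 (-0.66), Slc16a3 (-1.69), Hk2 (-0.52), Slc2a1 (-0.37) and Pdk2 (0.37) to the 12, each with its log2 change.

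Around the pathway, the pentose phosphate genes split in Ndrg1 nerves, where 60.5% of all genes were called, with Pgls, Rpia and Rpe higher and G6pdx, Tkt and Taldo1 lower of 7. Of 11 glycogen genes, Gyg, Ugp2, Pgm1 and Pygl were higher and Gbe1 and Pygb lower. Of 9 hypoxia-inducible genes 3 were higher (Adm, Car9, P4ha2) and 3 lower (Bnip3, Egln1, P4ha1), so no direction was common to that list. Myc was the 1 of 8 glycolysis regulators that rose, both in Ndrg1 nerves and after injury. After injury, 0 of 11 glycogen genes were called, and Arrdc4, an arrestin that lowers glucose uptake and responds to glucose, rose (log2 change 2.43, SE 0.42, edgeR adjusted p = 0.00656), as it did in Ndrg1 nerves by 1.26 (SE 0.12, edgeR adjusted p = 4.93e-09). Emb rose in both too. From 3 to 7 days in Wild type, 4 of 7 pentose phosphate genes fell (G6pdx, Pgd, Tkt, Taldo1) and Rpe rose. In Fig4 -/- nerves at P12, Pdp2, a phosphatase that switches pyruvate dehydrogenase on, was the sole pathway gene outside the members to be called, and it was lower. In Mitf-Ndrg1 against Ndrg1 nerves Bsg was higher by 0.28 (SE 0.07, edgeR adjusted p = 0.0476), with Pcx and Adm.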

How the data were processed

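Libraries were stranded and poly(A)-selected, from sciatic nerve RNA, per the labels' protocols. kallisto and build mm10 are named in the submitters' processing notes, and what the authors deposited is an estimated count for each gene. No source used here gives kallisto's version, its annotation or how transcripts were summed to genes. The members and lists were chosen with earlier results of these data known.

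Estimated counts were rounded to whole numbers. Each table was analysed alone with edgeR 4.0.16 in R 4.3.3: genes were kept by filterByExpr (minimum count 10), TMM set the scale and the robust quasi-likelihood F test was used, with Benjamini-Hochberg adjustment over all genes and a threshold of 0.05, and the standard error was taken from the F value. Groups of the time course and of the Ndrg1 table shared one fit. By the rule for named genes, up to 16 called members per comparison with the smallest p are named, with levels per library for up to 6 members per table and for the 4 muscle isoforms, and up to 3 called genes per pathway list. Slc16a1 and Slc2a1 in the Ndrg1 table, Slc2a1 and Aldoc after injury, Slc2a1 and Slc16a3 in the time course and pathway genes beyond 3 per list were named after their values were seen. Levels are CPM with TMM factors, log2 CPM for the covariate had a prior count of 2, isozyme ratios had 1 added to each count, and levels per kb used exon lengths of GENCODE vM21.

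Same-numbered libraries were checked for shared deviations. In the DhhCre table (5 pairs, correlations 0.119 to 0.299) and the Egr2Cre Mitf table (3 pairs, 0.123 to 0.34) every pair exceeded 0.1. Same-numbered libraries were each other's best match in 2 of 5 and 3 of 3 pairs. The labels do not pair them and the main fits had no block. Adding a block as an alternative changed no member's call there. Alternatives were DESeq2 1.42.0, RLE scaling, no filter, a replicate block, a muscle marker covariate, leaving out muscle-rich libraries (over 3 times the table's median), fitting the compared groups alone, and leaving out each library. On data simulated for Ndrg1 against control (15692 genes), 78% of 2-fold and 92% of 4-fold changes were recovered, and for Fig4 at P12 (13903 genes) 43% and 62%. For Fig4 at P4 (14672 genes) the shares were 2% and 62%. For the interaction of genotype and time they were 15% and 78% from 3 to 7 days, and 13% and 62% from 7 to 14 days. Depth was 15438783 to 34531474 counts per library.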

Additional observations from a re-analysis of the deposited data

Results flagged for a closer look

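In groups of 4 to 6 libraries, 52 of 271 member levels had 1 library outside the rest by Dixon's criterion, where chance flags about 1 in 20. All values are CPM. Mitf replicate 2 of the Ndrg1 table, at 41380 CPM of muscle markers, stood above its group at 17 members: Aldoa 3620, Eno3 1450, Gapdh 2020, Gpi1 325, Hk2 36.0, Ldha 761, Pdk1 30.1, Pdk2 140, Pfkfb1 9.54, Pfkfb4 31.3, Pfkm 535, Pgam2 582, Pgk1 414, Pkm 848, Slc16a3 62.3, Slc2a4 80.0 and Tpi1 648.

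Mitf-Ndrg1 replicate 4, at 21400 CPM of muscle markers, stood above its group at Aldoa 2410, Eno3 644, Gapdh 1160, Gpi1 270, Pdk2 75.0, Pdk4 46.8, Pfkm 270, Pgam2 212, Pkm 530, Slc16a3 24.8 and Slc2a4 53.7. Ndrg1 replicate 4 did so at Eno3 49.7, Pfkm 48.9, Pgam2 18.6 and Slc16a3 6.12. Ndrg1 replicate 3 stood below its group at Hk1 45.0, and its Slc16a7 was 13.1. Control replicate 2 had Pdk4 at 45.0 and control replicate 1 had Slc2a1 at 162.

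In the injury table, injured replicate 1, the library with astrocyte markers, had Aldoc at 3010, Pfkm at 356, Pfkl at 75.0 and Slc2a3 at 12.9. Injured replicate 2 had Hk3 at 27.4 and replicate 3 had Pfkfb1 at 2.93. Uninjured replicate 4, the richest in muscle markers there, had Eno3 at 97.3, Pgam2 at 27.3, Pfkm at 132 and Slc16a1 at 88.2, and uninjured replicate 3 had Eno1 at 371. At P21, replicate 3 of both groups had Eno3 at 11.5 (DhhCre) and 15 (Mitf), with Pgam2 at 6.21 in Mitf. DhhCre replicate 5 had Pgk1 at 141 and Mitf replicate 1 had Slc2a1 at 81.2.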

How the results depend on the processing

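Over all alternatives, 1141 values of called members were recomputed: 953 kept their direction and call, 185 kept their direction and lost the call, and 3 reversed. The reversals came with the muscle covariate, which gave -0.31 for Pfkm and -0.34 for Pgam2 from 3 to 7 days in Wild type and -0.44 for Pgam2 in Mutant. With that covariate the number of called members was 0 for Fig4 at P12, 2 for injury, 1 for Wild type from 7 to 14 days, 17 and 2 for the 2 Mutant steps, and 1 for Mitf-Ndrg1 against Ndrg1. DESeq2 gave 5 for Fig4 at P12, 2 for Mutant against Wild type at 14 days, 1 for the interaction from 7 to 14 days, 5 for Mitf-Ndrg1 against Ndrg1 and 2 for the interaction of Mitf and Ndrg1. Without the low-count filter there were 5 for Fig4 at P12, 1 for Wild type from 7 to 14 days, and 5 and 5 for the Mutant steps. Without muscle-rich libraries there were 1 for injury (uninjured replicates 1 and 4 left out), 20 for Wild type from 3 to 7 days, 1 for Mutant against Wild type at 7 days and 1 for Mitf-Ndrg1 against Ndrg1. With the compared groups alone there were 1 for Wild type from 7 to 14 days, 21 and 0 for the Mutant steps, and 0 for Mitf-Ndrg1 against Ndrg1. The cause was not tested. Counts by setting, here and above, are mostly given without the share of all genes called in the same fit. A change in such a count may therefore not be particular to the members. With the replicate block, injury had 5 calls (Hk3, Pgk1, Pgam1, Slc16a1, Slc2a1) and Fig4 at P12 had 2 (Aldoc and Ldha), while the other counts stayed within 1.5 times, 12 and 2 for the Wild type steps, 10 and 8 for the Mutant steps, 19 for Ndrg1 and 14 for Mitf-Ndrg1 against Mitf. Outside the DhhCre and Egr2Cre Mitf tables not every pair of same-numbered libraries correlated over 0.1, and in no table do the labels say that the numbers pair libraries. In Fig4 at P12 each library correlated best with its own number in 3 of 3 pairs and in the injury table in 3 of 4, a hint from the data and not from the design.

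Leaving out 1 library gave 0 to 5 called members for Fig4 at P12, 3 to 11 for injury, 8 to 14 and 1 to 2 for the Wild type steps, 3 to 8 and 2 to 16 for the Mutant steps, 0 to 7 for Mutant against Wild type at 14 days, 17 to 20 for Ndrg1, 14 to 20 for Mitf-Ndrg1 against Mitf, 1 to 3 for Mitf-Ndrg1 against Ndrg1 and 0 to 2 for the interaction. With 5 added to counts, the log2 ratio of Slc16a3 to Slc16a1 in Mitf at P12 became -4.71, and that of Slc2a3 to Slc2a1 became -3.76 in Fig4 -/- at P4 and -5.96 in Mitf at P21. Day 14 was not fitted without muscle-rich libraries, which left too few, and the Fig4 P12 and Egr2Cre Mitf tables had none over the ratio. Members under 1 CPM are limited by depth.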
